A study of Homo sapiens with 6 samples.

Results

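The 10 genes described here are YAP1, WWTR1 and TEAD1, the transcriptional end of the Hippo pathway, and CYR61, CTGF, ANKRD1, AMOTL2, AJUBA, LATS2 and F3, which are reported targets or partners of that end. They were taken by gene name from a table of 60504 genes measured in HCC827, an established line of human lung adenocarcinoma cells whose EGFR gene is mutated. All 10 were found under these names as protein-coding genes, and all 10 passed the filter on low values (at least 1 TPM on average), as did 15042 genes in all. TPM, the abundance unit of the deposited table, is a share of each library's RNA corrected for transcript length, so levels can be compared between genes on this scale.

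The 2D group held 3 libraries from a monolayer grown in flasks for 4 to 6 days from 1000000 cells, with a confluency of 80% also given. The 3D group held 3 libraries from tumoroids grown from 50000 cells in drops of Matrigel (a gel of basement membrane proteins, here with reduced growth factors) for 12 to 16 days or until 80% confluent. Both cultures received RPMI 1640 with GlutaMAX, 10% fetal bovine serum, penicillin and streptomycin, and the tumoroids were passaged with Dispase containing a Rock inhibitor, a drug against the kinase that tightens the actin cytoskeleton. Geometry, gel, culture time, seeding and passage differed together between the groups and cannot be told apart. The data come from 1 cell line, and the labels do not say whether libraries of a group were separate cultures; each p-value therefore reflects the spread between these libraries alone, which may be technical.

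YAP1 and WWTR1, the gene of the protein TAZ, encode coactivators that carry no DNA-binding domain and act through TEAD transcription factors. When the Hippo kinases are active, LATS1 and LATS2 phosphorylate both coactivators and keep them out of the nucleus; loose contacts, a stiff support and actin tension let them enter it. In lung epithelium they are known for roles in airway and alveolar regeneration and in tumour growth. The table measures RNA, and neither phosphorylation nor nuclear entry was measured.

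TEAD proteins bind DNA through a short element whose core is GGAATG, and AP-1 factors, which often sit beside them, bind elements of the form TGANTCA. Promoters from RefSeq on GRCh38.p14 were found for 8 of the 10 genes, in 11 windows of the 250 bases before an annotated start; CYR61 and TEAD1 had no entry. GGAATG was searched on both strands and stood in a window of 5 of these genes, namely CTGF, ANKRD1, AMOTL2, YAP1 and AJUBA. That count is by gene, over all windows of a gene, whereas the shares that follow are by window. Of 34943 such windows over all genes, 11.9% held at least 1 copy, 0.942% at least 2 and 0.083% at least 3, while TGANTCA, a palindrome counted once, was in 6.59%. The windows of CTGF, ANKRD1 and F3 are shown because they hold the most of these elements; capitals mark GGAATG and TGANTCA, which do not overlap each other.
CTGF (chr6:131951373-131951622, minus strand): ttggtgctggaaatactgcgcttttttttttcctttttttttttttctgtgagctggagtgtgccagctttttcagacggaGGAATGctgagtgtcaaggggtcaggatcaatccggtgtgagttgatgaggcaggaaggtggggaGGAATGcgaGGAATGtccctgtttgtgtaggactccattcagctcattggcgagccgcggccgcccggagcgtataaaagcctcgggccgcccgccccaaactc
ANKRD1 (chr10:90921088-90921337, minus strand): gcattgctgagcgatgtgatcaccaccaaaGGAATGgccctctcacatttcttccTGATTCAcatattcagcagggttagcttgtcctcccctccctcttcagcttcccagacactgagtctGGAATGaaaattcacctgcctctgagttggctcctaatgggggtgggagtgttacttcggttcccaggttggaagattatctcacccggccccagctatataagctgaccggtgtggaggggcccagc
F3 (chr1:94541760-94542009, minus strand): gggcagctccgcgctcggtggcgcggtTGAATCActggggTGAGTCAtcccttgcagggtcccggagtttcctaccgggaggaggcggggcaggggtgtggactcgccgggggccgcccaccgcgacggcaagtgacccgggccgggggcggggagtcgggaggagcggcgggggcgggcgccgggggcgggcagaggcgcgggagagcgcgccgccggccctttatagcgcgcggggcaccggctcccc
The CTGF window held 3 copies of GGAATG, beginning 169, 104 and 95 bases before the start. The ANKRD1 window held 2, beginning 220 and 128 bases before it, with 1 TGANTCA at 195. The F3 window held no GGAATG and 2 copies of TGANTCA, at 223 and 210. These are matches of letters, not measured binding.

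The regulators YAP1, WWTR1 and TEAD1 showed no called change, AJUBA fell, F3 rose, and CYR61 and CTGF had higher values in every 3D library than in any 2D library without passing the test across all genes. A call means a Benjamini-Hochberg adjusted p under 0.05 over all 15042 tested genes in limma, a linear model with variances moderated across genes, fitted on log2(TPM + 1). Among the 10 genes 1 was called higher, against 10.2% of all tested genes, and 1 was called lower, against 2.12%. The groups did not overlap in 4 of the 10 genes, against 36.7% of all tested genes; 3 lay higher in 3D, against 27.3%, and 1 lower, against 9.40%. An unadjusted p under 0.05 was reached by 4 of the 10, against 31.4%. Separation of the groups was thus about as common among the 10 as elsewhere. Their median log2 fold change was 0.28, against 0.12 for all tested genes.

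**Figure D1:**
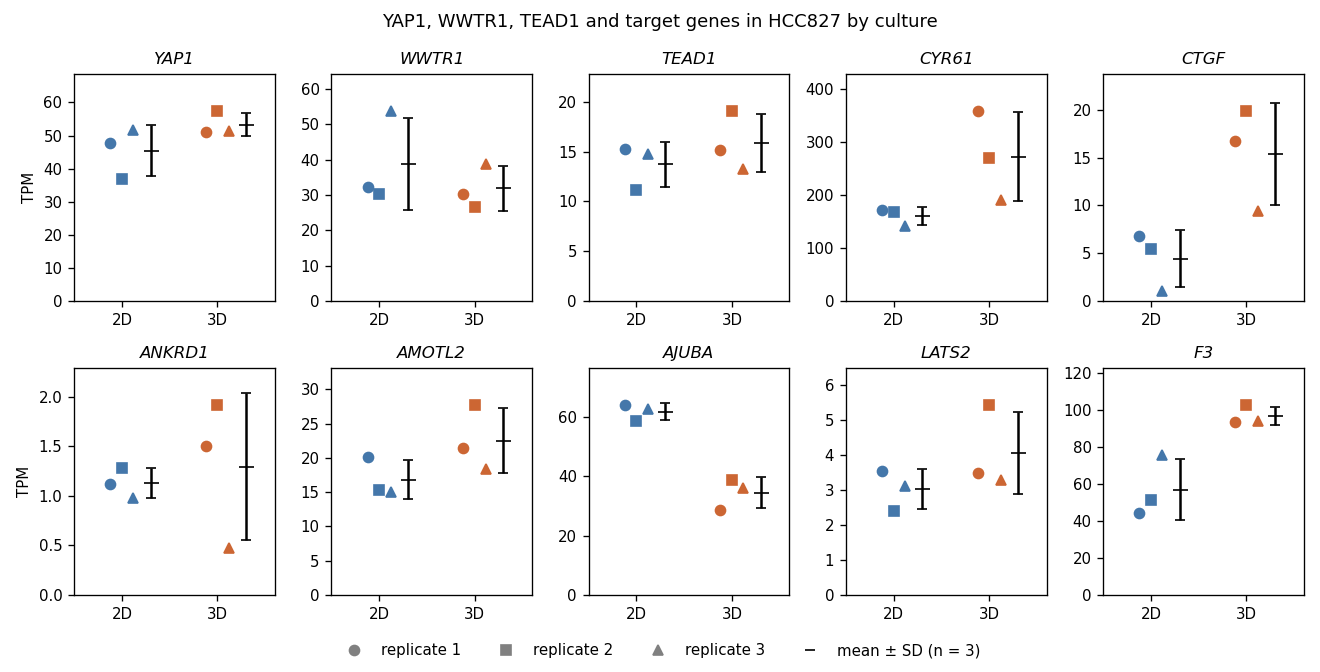
Deposited TPM of the 10 genes (vertical axes from 0, each panel on its own scale) in the 3 libraries of 2D and the 3 of 3D culture; symbols mark the replicate number and bars the mean ± SD. AJUBA lies lower in all 3D libraries, CYR61, CTGF and F3 lie higher in all of them, and the groups overlap in the other panels.

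A pair of facts about the libraries bear on these values. The libraries numbered 3 stood apart on the second principal component (19.5% of the variance), and CYR61, CTGF, ANKRD1 and AMOTL2 were lowest in replicate 3 of both groups. That made 4 of the 10 genes, against 17.5% of all tested genes, and WWTR1 was highest in replicate 3 of both. The second fact is one of scale: the typical gene was 0.12 higher in 3D on the log2(TPM + 1) scale, and -0.03 after median-ratio scaling, which sets the typical gene level between libraries. The change on that second scale is therefore also given for the 10 genes and for the other named genes that were called. In these bulk libraries fewer cells with a transcript and less of it per cell cannot be told apart.

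The coactivators came first in the comparison. YAP1 was measured at 51.2, 57.3 and 51.3 TPM in 3D and at 47.8, 37.0 and 51.6 TPM in 2D. The groups overlapped, since 2D replicate 3 lay above 2 of the 3D libraries. The means were 53.3 ± 3.48 and 45.5 ± 7.62 TPM (SD, n = 3 each), with a log2 fold change of 0.24 and a 95% interval from -0.12 to 0.60 (limma, adjusted p = 0.333). After median-ratio scaling the change was 0.06.

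WWTR1 was measured at 30.2, 26.6 and 38.8 TPM in 3D and at 32.4, 30.1 and 53.7 TPM in 2D. The groups overlapped, and the highest library in 2D was replicate 3. The log2 fold change was -0.24, with an interval from -0.81 to 0.32 (limma, adjusted p = 0.523), and it was -0.42 after median-ratio scaling (adjusted p = 0.291). It was 0.01 without 2D replicate 3 and between -0.40 and -0.13 with any other single library left out. Before median-ratio scaling, the intervals of both coactivators leave out a change of 1 log2 unit in either direction, which is a 2-fold change on that scale. No interval is given after that scaling, so the statement does not extend to it. The sum of the coactivators was 85.1 ± 4.48 TPM in 3D and 84.2 ± 19.4 TPM in 2D (exact permutation test, two-sided p = 0.900). The WWTR1 to YAP1 ratio was 0.603 ± 0.146 in 3D and 0.844 ± 0.183 in 2D, with overlapping groups (exact permutation test, two-sided p = 0.2, where 3 libraries against 3 cannot give a p under 0.1).

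TEAD1, which binds DNA for the coactivators, had 15.2, 19.0 and 13.3 TPM in 3D and 15.3, 11.1 and 14.8 TPM in 2D. These ranges overlapped. The log2 fold change was 0.19, with an interval from -0.24 to 0.62 (limma, adjusted p = 0.508), and 0.02 after median-ratio scaling. Its paralog TEAD2 had another pattern.

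TEAD2 was measured at 19.9, 18.0 and 18.3 TPM in 3D and at 10.5, 9.02 and 8.71 TPM in 2D. Every 3D library lay far above every 2D library, and the replicates of a group lay close together. TEAD2 rose by 0.93 on the log2 scale (SE 0.13; limma, adjusted p = 0.00819), and by 0.76 after median-ratio scaling; the call was lost without 3D replicate 1 (adjusted p = 0.0580). TEAD3 and TEAD4 were not called, with log2 fold changes of 0.10 and -0.17; after median-ratio scaling these were -0.06 and -0.34. TEAD2 made up 32.0% ± 2.55 of the summed TEAD TPM in 3D and 19.4% ± 0.970 in 2D, and TEAD4 made up 25.6% ± 3.25 and 35.1% ± 4.21. The groups did not overlap for either share (exact permutation test, two-sided p = 0.1 for each, the smallest possible). The share of TEAD1 was 27.0% ± 4.41 and 28.2% ± 3.19, with overlap. These shares do not depend on the scaling of the libraries.

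**Figure D2:**
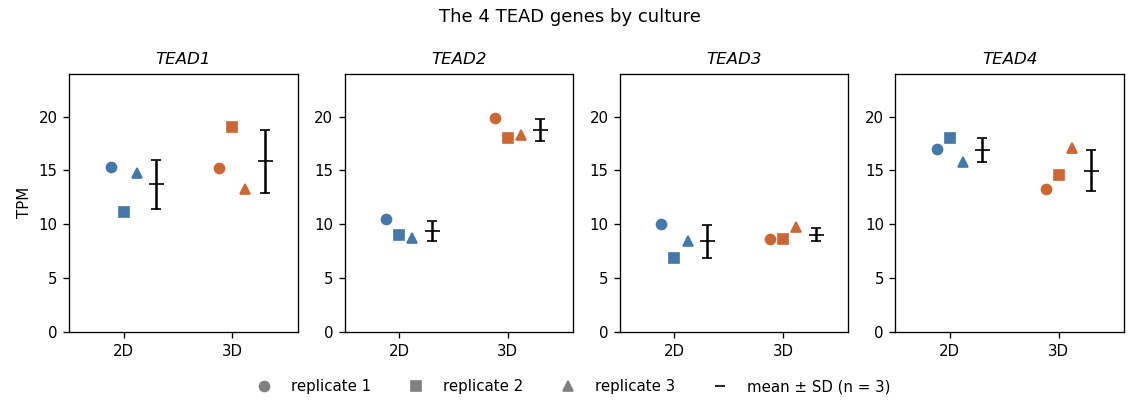
Deposited TPM of the 4 TEAD genes on a common axis from 0 in each library of 2D and 3D culture, with symbols for the replicate number and bars for the mean ± SD. TEAD2 is the panel in which the groups lie apart, near 9.40 TPM in 2D and 18.7 TPM in 3D.

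VGLL4, a cofactor that competes with the coactivators for TEAD, had 25.6, 27.5 and 24.3 TPM in 3D and 20.9, 15.8 and 15.7 TPM in 2D. All 3D libraries lay above all 2D libraries, but the gene was not called (log2 fold change 0.55, SE 0.15; limma, adjusted p = 0.0553). After median-ratio scaling its change was 0.38. The other cofactors of this family stayed under the filter: VGLL1 reached at most 0.51 TPM, VGLL3 at most 0.80 TPM, and VGLL2 was listed at 0 in every library. Of the 5 tested TEAD and VGLL genes, TEAD2 was thus the 1 called, which is 20.0% against 12.3% of all tested genes.

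Among the targets, the matricellular proteins CYR61 and CTGF, secreted members of the CCN family that bind integrins, are the most widely used reporters of YAP and TAZ. CYR61 was measured at 357.9, 269 and 191 TPM in 3D and at 173, 168 and 142 TPM in 2D. The groups lay apart, with 3D replicate 3 close to the 2D libraries and 3D replicate 1 far above them. The mean was 1.70 times as high in 3D, and the log2 fold change was 0.72 with an interval from 0.19 to 1.25 (SE 0.23; limma, adjusted p = 0.0788). It was 0.54 after median-ratio scaling. Without 3D replicate 3 it was 0.95 and passed the test (adjusted p = 0.0243).

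CTGF was measured at 16.8, 19.8 and 9.43 TPM in 3D and at 6.77, 5.42 and 1.08 TPM in 2D. The groups lay apart, and replicate 3 was the lowest library of each. CTGF had the largest log2 fold change of the 10 genes, 1.74, with the widest interval, from 0.58 to 2.90 (SE 0.50; limma, adjusted p = 0.0607). The value was 1.59 after median-ratio scaling and 1.15 without 2D replicate 3. Both libraries numbered 3 were also left out, an analysis chosen after seeing the data. CTGF (1.44, adjusted p = 0.00803) and CYR61 (0.86, adjusted p = 0.0174) then both passed limma's test. In that fit 2289 of the 15042 tested genes were called higher and 1239 lower. CTGF RNA was far scarcer than CYR61 RNA: CYR61 was 13.6 to 21.4 times as abundant in the 3D libraries. In 2D replicates 1, 2 and 3 it was 25.5, 31.0 and 131 times as abundant. The value of 131 comes from the library with CTGF at 1.08 TPM, close to the filter. Of the other CCN genes, WISP2 was tested and not called (log2 fold change -0.37), and NOV, WISP1 and WISP3 were below the filter.

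CTGF and CYR61 are also abundant in fibroblasts and endothelium, so markers of these cells were read in the same libraries. The 8 fibroblast markers summed to 6.99 to 12.2 TPM in 3D and 2.10 to 2.96 TPM in 2D, of which COL1A1 gave most, at 7.56 ± 2.78 and 2.3 ± 0.248 TPM. COL1A1 was called higher in 3D (log2 fold change 1.33, limma adjusted p = 0.0170), and its change was 1.19 after median-ratio scaling. The call held in 12 of 16 alternatives. LUM, below the filter, lay higher in every 3D library, at 1.17 ± 0.347 against 0.187 ± 0.151 TPM. COL3A1 and THY1 were listed at 0 in all 6 libraries and COL1A2 reached at most 0.01 TPM. The groups overlapped for PDGFRA, PDGFRB and DCN. The 6 endothelial markers summed to 1.55 to 4.10 TPM in 3D and 0.680 to 1.48 TPM in 2D. The part of these small sums in the CTGF and CYR61 values was not tested. The 7 leukocyte markers summed to 48.8 to 90.6 TPM in 3D and 70.9 to 98.8 TPM in 2D, nearly all of it from CD68, a lysosomal protein that is not restricted to leukocytes, at 69.4 ± 21.7 and 86.6 ± 15.7 TPM. CD14 was at 2.75 ± 0.599 and 2.56 ± 0.554 TPM, and the other 5 stayed below 1 TPM, among them the defining marker PTPRC, at no more than 0.25 TPM. The 8 markers of lung adenocarcinoma epithelium, the labelled cell, were all above the filter and summed to 5018 to 8806 TPM in 3D and 7602 to 10166 TPM in 2D. KRT7 was called lower in 3D, at 698 ± 172 against 1201 ± 31.4 TPM (log2 fold change -0.81, limma adjusted p = 0.0355). Its change was -0.99 after median-ratio scaling, and the call held in 11 of 17 alternatives. KRT18 also lay lower in every 3D library but was not called (-0.77, limma adjusted p = 0.0794). For EPCAM, CDH1, KRT8, KRT19, NKX2-1 and EGFR the groups overlapped, without a call.

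F3, the cell surface receptor that starts blood clotting (tissue factor), rose. It was measured at 93.5, 102.3 and 94.1 TPM in 3D and at 44.2, 51.1 and 75.4 TPM in 2D. The 3D libraries lay close together, and 2D replicate 3 lay nearest to them. The means were 96.6 ± 4.93 and 56.9 ± 16.4 TPM, with a log2 fold change of 0.79 (SE 0.20; limma, adjusted p = 0.0418). The call stood close to the threshold. It was lost after median-ratio scaling (0.61, adjusted p = 0.0970), with quantile normalization (adjusted p = 0.0658), without the filter, without a trend in the variances, and without any single library other than 2D replicate 3 (adjusted p = 0.0677 to 0.146).

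AJUBA, a LIM-domain scaffold at cell junctions that binds and restrains LATS kinases, fell. It was measured at 28.8, 38.9 and 35.9 TPM in 3D and at 64.0, 58.6 and 62.9 TPM in 2D. Each 2D library lay well above each 3D library. The mean in 3D was 0.559 times that in 2D, a log2 fold change of -0.83 (SE 0.14; limma, adjusted p = 0.0148), and -1.01 after median-ratio scaling (adjusted p = 0.00693). The call was lost when 3D replicate 1 was left out (adjusted p = 0.0643), and likewise for 2D replicate 1 (0.0506) and 2D replicate 2 (0.0541). Another gene model, AL132780.3, overlaps AJUBA on the same strand in GENCODE 29 and also fell, with 11.0, 12.2 and 16.7 TPM in 3D and 26.7, 25.6 and 25.2 TPM in 2D. How reads were divided between these models is uncertain.

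AMOTL2, an angiomotin that binds YAP and holds it at junctions, had 21.4, 27.7 and 18.4 TPM in 3D and 20.1, 15.3 and 15.0 TPM in 2D. The groups overlapped through 3D replicate 3 and 2D replicate 1. The log2 fold change was 0.39, with an interval from -0.05 to 0.84 (limma, adjusted p = 0.203), and 0.22 after median-ratio scaling.

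LATS2, a target that in turn encodes the kinase that inactivates the coactivators, had 3.48, 5.42 and 3.30 TPM in 3D and 3.54, 2.40 and 3.13 TPM in 2D. The groups overlapped, and 3D replicate 2 was the highest. The log2 fold change was 0.32, with an interval from -0.20 to 0.84 (limma, adjusted p = 0.361), and 0.18 after median-ratio scaling. The paralog LATS1 did differ, at 7.96, 10.2 and 7.81 TPM in 3D against 4.13, 3.83 and 3.66 TPM in 2D.

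ANKRD1, a nuclear and sarcomeric ankyrin repeat protein used as a YAP reporter in many cell types, was close to the filter. It had 1.50, 1.91 and 0.47 TPM in 3D and 1.12, 1.28 and 0.98 TPM in 2D. The 3D libraries lay on both sides of the 2D libraries, with replicate 3 at the bottom. The log2 fold change was 0.05, with an interval from -0.64 to 0.75 (limma, adjusted p = 0.919), and -0.04 after median-ratio scaling. Depth is unknown in a TPM table, so it is also unknown how many reads lie behind these low values.

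**Figure D3:**
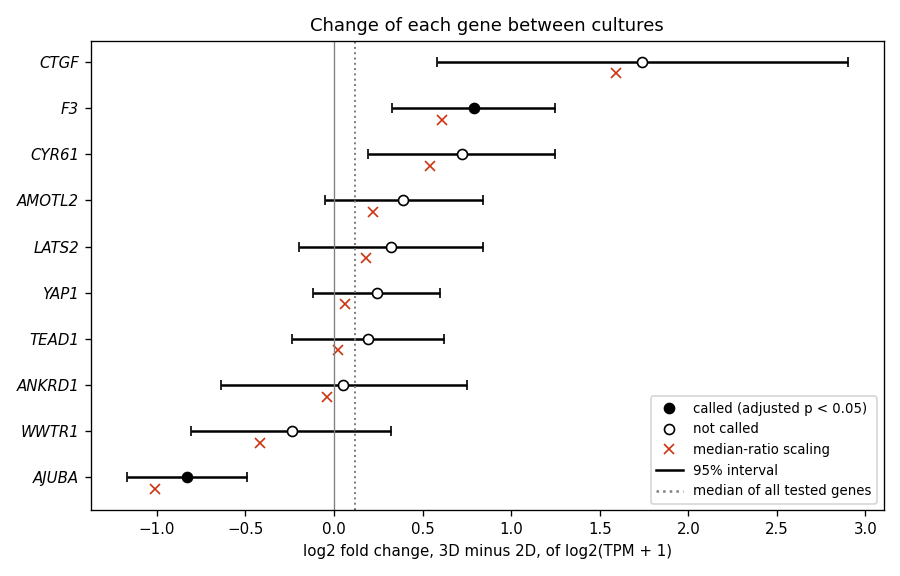
Log2 fold change (3D minus 2D, of log2(TPM + 1)) of the 10 genes with its 95% interval from limma, filled where called; crosses give the value after median-ratio scaling and the dotted line the median of all tested genes, 0.12. AJUBA lies at -0.83 and F3 at 0.79, CTGF has the widest interval, and the intervals of YAP1, WWTR1, TEAD1, ANKRD1, LATS2 and AMOTL2 include 0.

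In 3D the order of mean levels was CYR61, F3, YAP1, AJUBA, WWTR1, AMOTL2, TEAD1, CTGF, LATS2 and ANKRD1. The ranges of neighbours overlapped from AJUBA through to CTGF and were apart elsewhere in that order. In 2D the order was CYR61, AJUBA, F3, YAP1, WWTR1, AMOTL2, TEAD1, CTGF, LATS2 and ANKRD1, with overlap among AJUBA, F3, YAP1 and WWTR1 as neighbours, between AMOTL2 and TEAD1, and between CTGF and LATS2. CYR61 was thus the most abundant of the 10 in both cultures, above 97.3% of tested genes in 3D and 95.3% in 2D. CTGF was above 53.2% of tested genes in 3D and 28.4% in 2D, and ANKRD1 above 4.39% and 5.74%.

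Genes of the Hippo kinase module, which acts upstream of the coactivators, were higher in 3D in several cases. Of 21 tested genes 6 rose and none fell, and 15 were not called, which is 28.6% called against 12.3% of all tested genes; the median log2 fold change was 0.26 against 0.12. LATS1, the kinase that phosphorylates YAP and TAZ, rose from 3.87 ± 0.238 to 8.66 ± 1.34 TPM, by 0.98 on the log2 scale (SE 0.16; limma, adjusted p = 0.0122). SAV1, the scaffold that joins the upstream kinases, rose from 29.7 ± 4.08 to 58.0 ± 17.6 TPM (0.91, SE 0.23, adjusted p = 0.0433). MOB1B, the activating partner of LATS kinases, rose from 6.27 ± 0.558 to 11.2 ± 1.45 TPM (0.74, SE 0.15, adjusted p = 0.0246). TNIK, a kinase of the MAP4K family, rose from 1.90 ± 0.389 to 6.10 ± 1.45 TPM (1.28, SE 0.22, adjusted p = 0.0138). The related kinases MAP4K3 and MAP4K5, named here after their values were seen, rose by 0.54 (limma, adjusted p = 0.0401) and 0.64 (adjusted p = 0.0383). The family did not move together. MAP4K2 lay lower in every 3D library without a call (-0.49, limma adjusted p = 0.120). It was called lower only without both libraries numbered 3 (adjusted p = 0.0385). MAP4K4 (0.26) and MINK1 (-0.11) overlapped between groups and were not called, and MAP4K1 was below the filter. After median-ratio scaling the changes were 0.83 for LATS1, 0.73 for SAV1, 0.58 for MOB1B, 1.14 for TNIK, 0.37 for MAP4K3 and 0.46 for MAP4K5.

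These calls depended on scale and on single libraries. After median-ratio scaling 3 of the 21 were called, and without the filter 1 was called. Over all genes that scaling called 943 higher and 669 lower of 15042. The fit without the filter called 729 higher and 86 lower of 33924. With either 3D replicate 2 or 2D replicate 2 left out, limma called none. It called 1 when 3D replicate 1 was left out, 2 for 2D replicate 1 and 3 for 2D replicate 3; at an unadjusted p under 0.05, 9 of the 21 passed in the full set, against 31.4% of all tested genes. The calls of all tested genes fell with the same libraries, from 1536 higher and 319 lower to 331 and 25 (3D replicate 1 left out), 380 and 38 (3D replicate 2), 733 and 76 (2D replicate 1), and 408 and 51 (2D replicate 2). The genes called lower numbered 553 with 3D replicate 3 left out and 534 with 2D replicate 3 left out. LATS1 lost its call when 3D replicate 1 or 2 was left out, or 2D replicate 2 (adjusted p = 0.0545 to 0.0598), while its log2 fold change was 0.87 to 1.03 in these fits. TNIK lost it when replicate 2 of either culture or the filter was left out (0.0515 to 0.0636), with changes of 1.16 to 1.3. SAV1 was called in 7 of 17 alternatives: it lost its call after median-ratio scaling (0.0675), with quantile normalization, without the filter, the mitochondrial genome or the trend, and when any library but 3D replicate 3 was left out (0.0651 to 0.149, with changes of 0.70 to 1.00). MOB1B lost it when the filter or any of the 4 libraries numbered 1 or 2 was left out, and with quantile normalization (up to 0.104, with changes of 0.52 to 0.77). MAP4K3 was called in 5 of 17 alternatives and lost its call after median-ratio scaling (0.113) and with every single library left out (up to 0.137). MAP4K5 was called in 8 of 17, and likewise lost it after median-ratio scaling (0.0828) and with any library but 3D replicate 3 left out (up to 0.117).

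The kinases at the top of the module and its membrane regulator were not called. STK3 and STK4, the human Hippo kinases, had 18.5 ± 2.15 and 8.17 ± 1.05 TPM in 3D against 16.7 ± 1.11 and 6.32 ± 1.17 TPM in 2D, log2 fold changes of 0.14 and 0.33 that became -0.03 and 0.17 after median-ratio scaling. NF2, the tumour suppressor merlin that recruits LATS to the membrane, had 10.9 ± 0.281 against 11.8 ± 0.996 TPM (log2 fold change -0.11, limma adjusted p = 0.589; -0.28 after median-ratio scaling). The LATS1 to LATS2 ratio was 2.18 ± 0.260 in 3D and 1.31 ± 0.247 in 2D, with no overlap (exact permutation test, two-sided p = 0.1, the smallest possible).

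Of 30 tested junction and polarity regulators AJUBA alone was called, as lower, and 29 were not called, so 3.33% were called against 12.3% of all tested genes; the median was 0.21. By looser measures the list was near the background: 10 of the 30 had an unadjusted p under 0.05, against 31.4% of all tested genes, and the groups did not overlap in 13 of the 30, against 36.7%. When both libraries numbered 3 were left out the number called was 6. That fit called 2289 higher and 1239 lower of all 15042 tested genes. The list had 4 called genes with 3D replicate 3 left out and 3 with 2D replicate 3 left out. Limma called 0 with 3D replicate 1, 2D replicate 1 or 2D replicate 2 left out. AMOTL1, an angiomotin like AMOTL2, averaged 4.40 ± 0.0569 TPM in 3D against 3.62 ± 0.312 TPM in 2D (log2 fold change 0.23, limma adjusted p = 0.349), and AMOT stayed below the filter.

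A signature of 22 YAP, TAZ and TEAD targets from the literature, which holds 6 of the 10 genes, did not move in one direction. Of its 20 tested genes 3 rose and 1 fell, and 16 were not called, which is 20.0% called against 12.3% of all tested genes; the median was 0.09 against 0.12. IGFBP3, a secreted protein that binds insulin-like growth factors, rose from 454 ± 230 to 1441 ± 108 TPM, by 1.77 on the log2 scale (SE 0.31; limma, adjusted p = 0.0149). GADD45A, a stress-induced growth arrest gene, rose from 42.6 ± 11.0 to 119 ± 24.7 TPM (1.47, SE 0.24, adjusted p = 0.0116), and F3 was the third. TGFB2, a secreted growth factor, fell from 19.5 ± 1.90 to 11.0 ± 1.75 TPM (-0.78, SE 0.16, adjusted p = 0.0226). AXL, a receptor kinase often read as a YAP target, stayed below the filter at no more than 1.03 TPM. After median-ratio scaling 2 rose and 2 fell, with changes of 1.59 for IGFBP3, 1.29 for GADD45A and -0.95 for TGFB2.

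Single libraries moved this count as well. With 3D replicate 1 or 3D replicate 2 left out limma called none of the signature, where 331 and 380 of all genes were still called higher. It called 1 when 2D replicate 2 was left out, 2 for 2D replicate 1, and 8 when both libraries numbered 3 were left out. With both left out, 2289 of all 15042 tested genes were called higher and 1239 lower. Without the filter 1 was called, where 729 higher and 86 lower were called of 33924 genes in all. At an unadjusted p under 0.05, 7 of the 20 passed in the full set, against 31.4% of all tested genes. IGFBP3 lost its call when 3D replicate 1 or 2, or 2D replicate 2, or the filter was left out (adjusted p = 0.0551 to 0.0702), with changes of 1.63 to 1.80. GADD45A lost it when 3D replicate 1 or 2 was left out (0.0672 and 0.0626, with changes of 1.37 and 1.38). TGFB2 lost it without the filter and without any of the 4 libraries numbered 1 or 2 (0.0562 to 0.0913), with changes of -0.82 to -0.66.

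Of 20 further genes reported as YAP or TAZ targets elsewhere, 13 were tested; 4 rose, 0 fell and 9 were not called (30.8% against 12.3%; median 0.23). EDN1, the peptide endothelin, rose from 4.39 ± 1.49 to 34.7 ± 11.6 TPM, by 2.71 on the log2 scale (SE 0.31; limma, adjusted p = 0.00348). SGK1, a kinase induced by serum and glucocorticoids, rose from 47.6 ± 12.6 to 294 ± 86.6 TPM (2.58, SE 0.27, adjusted p = 0.00241). JAG1, a Notch ligand, rose by 1.24 and MYC by 1.65. All 4 kept their call under each of the 17 alternatives run, and after median-ratio scaling their changes were 2.55, 2.41, 1.08 and 1.47. Under that scaling 1 gene of the list also fell, TNFRSF12A, a receptor of the TNF family named here after its values were seen (-0.59, adjusted p = 0.0488, against -0.42 and 0.136 without it). CAV1 and BIRC5, which are in the same list, had negative values (-0.99 and -0.64) and were not called; both were highest in replicate 3 of each group. CAV1 was called lower without both libraries numbered 3 (adjusted p = 0.0457) and with the replicate number as a block (0.0227), and BIRC5 with that block (0.0410).

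Genes driven by SRF and its actin-sensing partner MRTF, a route that shares CYR61 and CTGF as targets with YAP, were read for comparison. Of 21 tested genes 3 rose and none fell, and 18 were not called (14.3% against 12.3%; median 0.17). SRF itself rose from 9.90 ± 1.24 to 18.3 ± 3.42 TPM, by 0.81 on the log2 scale (SE 0.18, limma, adjusted p = 0.0293). CNN3, an actin-binding calponin, rose from 22.8 ± 9.90 to 51.1 ± 3.43 TPM, and FILIP1L from 0.533 ± 0.127 to 5.88 ± 4.13 TPM. FILIP1L was at 0.63, 0.39 and 0.58 TPM in 2D, under the filter value, and was tested only through its 3D values. Its call, here and after scaling, is therefore a description and no support for a rise of the list. After median-ratio scaling 1 of the 21 rose and 1 fell: SRF and CNN3 were no longer called (0.64 and 1.03, adjusted p = 0.0528 and 0.0565), FILIP1L still was (1.87, adjusted p = 0.0380), and CNN2, another calponin named after its values were seen, was called lower (-0.63, adjusted p = 0.0312, against -0.45 and 0.0805 without it). Limma called none of the 21 when any of the 4 libraries numbered 1 or 2, or the filter, was left out. It called 4 when 2D replicate 3 was left out, 2 for 3D replicate 3, and 5 for both together. Leaving out both gave 2289 higher and 1239 lower over all 15042 tested genes. At an unadjusted p under 0.05, 7 of the 21 passed in the full set, against 31.4% of all tested genes.

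**Figure D4:**
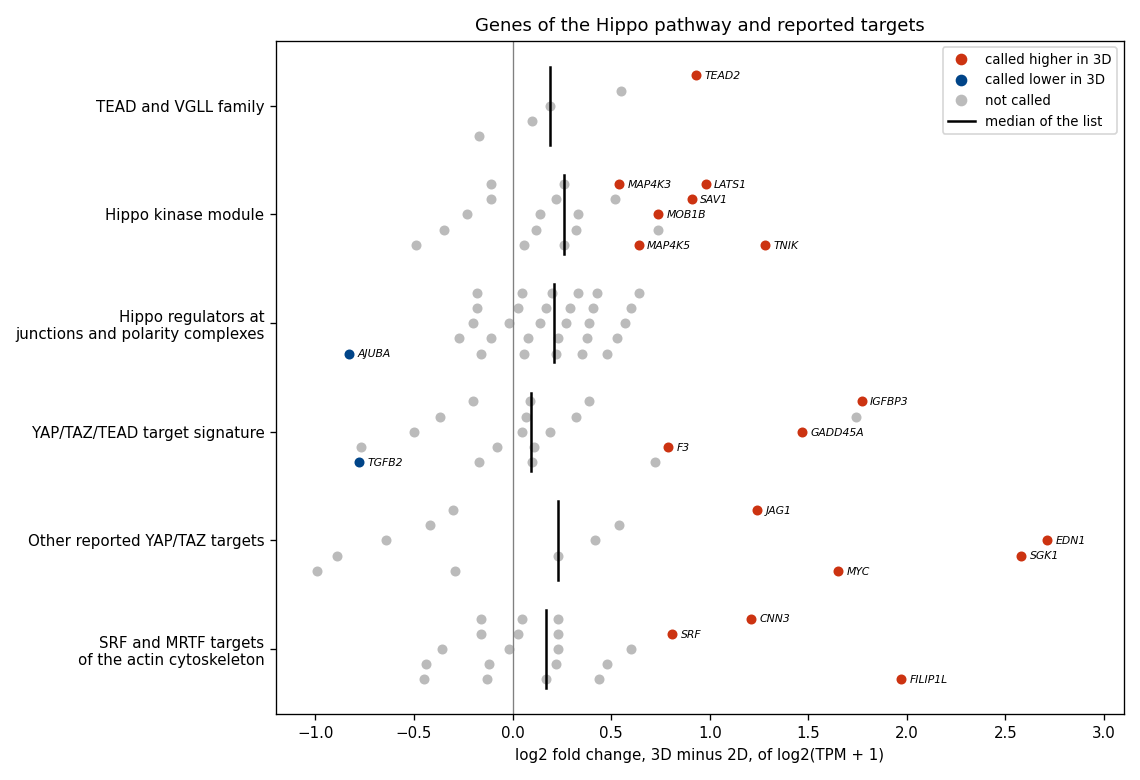
Log2 fold change (3D minus 2D, of log2(TPM + 1)) of every tested gene in 6 lists, 1 point per gene, with called genes coloured and named and the median of each list as a black line; height within a list has no meaning. Called genes lie mostly on the right, up to 2.71 for EDN1, with AJUBA and TGFB2 on the left, and the list medians lie between 0.09 and 0.26.

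Genes with the most similar profiles were sought among 8074 protein-coding genes averaging 10 TPM or more, as the smallest root mean square difference of mean-centred log2(TPM + 1) over the 6 libraries. The closest to YAP1 were UBAP2L (0.013), WIPF2 (0.024) and CDC42BPB (0.031), where YAP1 itself varied by 0.192 around its mean. The closest to CYR61 were PLPP6 (0.077), FAM179B (0.109) and DDX5 (0.111), where CYR61 varied by 0.453. The closest to CTGF were TCN1 (0.260), LURAP1L (0.267) and OLFM2 (0.279), where CTGF varied by 1.095. With 6 libraries in 2 groups, such likeness is a description of these libraries.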

How the data were processed

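Poly(A) RNA of HCC827 cells was sequenced as single-end reads of 75 nt from a directional library kit, per the labels' protocols. The authors deposited TPM per gene and library, rounded to 2 decimals. The submitters' processing notes name STAR 2.7.0d, RSEM 1.3.1, cutadapt 2.3 and the build hg38. The annotation release, the strand setting and any filter: not given in the sources used here. TPM keeps no depth, so no counting intervals are given.

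Groups and replicate numbers came from sample titles. Genes averaging 1 TPM or more entered a limma 3.58.1 fit of log2(TPM + 1) in R 4.3.3 (lmFit, eBayes with a trend), comparing 3D with 2D. Its two-sided p-values were adjusted by Benjamini-Hochberg across every tested gene. Fold changes on this scale understate those of low genes. The fit was tested on simulated libraries with independent noise for each gene and known changes in some genes. Those libraries held no difference of scale between groups and nothing shared by the libraries numbered 3. They therefore say nothing about the effect of these features on the calls. Ratios and shares were compared by exact permutation tests (scipy 1.17.1). Outside the 10 genes, named genes were the up to 4 largest called changes of a list in its main direction and 2 in the other, with fixed pathway genes; others were named after their values were seen. Members and lists were chosen with earlier results of these data known, so the counts over lists are descriptions. Gene models came from GENCODE 29 on GRCh38 and promoters from RefSeq on GRCh38.p14.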

Additional observations from a re-analysis of the deposited data

How the results depend on the processing

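The alternatives changed the pseudocount (0.1 or 5), the filter (none, or 5 TPM), the scaling (median ratios, quantiles, or no mitochondrial genome), the variance model (no trend, or robust), the block and the libraries, each left out in turn; leaving out both libraries numbered 3 was added after seeing the data. Over all genes, 729 higher and 86 lower of 33924 were called without the filter. A filter at 5 TPM gave 1217 and 308 of 10768. Of 15042 genes, median-ratio scaling called 943 higher and 669 lower, and quantile normalization 869 and 576. A pseudocount of 0.1 gave 1523 and 318, and a pseudocount of 5 gave 1470 and 306. No trend gave 1429 and 260, and the robust model 1548 and 326. Without the mitochondrial genome the counts were 1479 and 329 of 15027. Single libraries left out gave 331 to 1610 and 25 to 553, and leaving out both numbered 3 gave 2289 and 1239. Of the 10 genes, the number called higher was 2 with a pseudocount of 5, 0 without the filter, with median-ratio scaling, with quantile normalization and with no trend, 3 without both libraries numbered 3, and 0 to 1 without single libraries; the number called lower was 0 to 1 without single libraries and 1 in every other alternative. F3 kept its direction but not its call without the filter (0.79), with median-ratio scaling (0.61), quantile normalization (0.75) and no trend (0.79), and ranged from 0.63 to 1.01 without single libraries; AJUBA ranged from -0.92 to -0.71. CTGF was called with a pseudocount of 5 (1.13) and without both libraries numbered 3 (1.44), and ranged from 1.15 to 2.10 without single libraries. CYR61 was called without both (0.86) and ranged from 0.50 to 0.95. YAP1 ranged from 0.10 to 0.33, WWTR1 from -0.40 to 0.01 (0.01 without 2D replicate 3), TEAD1 from 0.06 to 0.30, AMOTL2 from 0.24 to 0.52, LATS2 from 0.14 to 0.42, and none of these was called in any alternative. ANKRD1 was -0.04 with median-ratio scaling, -0.20 with quantile normalization, -0.04 and -0.15 when 3D replicates 1 and 2 were left out in turn, and at most 0.35. TEAD3 was -0.06 and -0.11 under the same scalings and -0.02 to 0.22 without single libraries; STK3 was -0.03 under both scalings. The causes of these changes were not tested.

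With the replicate block, chosen as an alternative because the titles share numbers, 3 of the 10 genes were called higher and 1 lower. Over all 15042 tested genes the block called 1479 higher and 395 lower. CYR61 (0.72, limma adjusted p = 0.0395) and CTGF (1.74, adjusted p = 0.00885) gained a call, and 2 genes of the CCN family were called. Deviations from the group means correlated at 0.101, 0.0365 and 0.185 across tested genes between same-numbered libraries, and not every library correlated best with its own number, so the numbers were not treated as pairs.

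For the lists, the kinase module had 1 call without the filter, 3 with median-ratio scaling, 2 with quantile normalization, 3 with no trend and 0 to 6 without single libraries. The junction and polarity list had 2 with a filter at 5 TPM, 6 without both libraries numbered 3 and 0 to 4 without single libraries. The TEAD and VGLL genes had 2 with a filter at 5 TPM and 0 to 2. The target signature had 1 without the filter, 8 without both and 0 to 5. The CCN family had 1 with a pseudocount of 5, 2 without both and 0 to 1. The SRF and MRTF list had 0 without the filter, 5 without both and 0 to 4. The further targets had 4 calls without each single library.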
